A study of Mus musculus with 12 samples.

Results

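The fatty acid elongases and desaturases described here were the 10 genes *Elovl1*, *Elovl3*, *Elovl5*, *Elovl6*, *Elovl7*, *Scd1*, *Scd2*, *Scd3*, *Fads1* and *Fads2*, taken by their symbols from a count table of 21247 genes. All 10 were found and all 10 passed the filter of at least 10 counts summed over the libraries. RNA was sequenced from periocular skin, the skin around the eye, of BALB/c mice at 6 weeks of age. The question was how loss of MyD88, an adaptor through which IL-1 family receptors and most Toll-like receptors signal, changed skin that lacked filaggrin. Both groups were homozygous for a spontaneous loss-of-function mutation in filaggrin (ft/ft), bred free of the matted (ma) mutation in *Tmem79*. One group of 4 mice carried no further allele (ft/ft) and the other group of 4 mice was also MyD88 deficient in all tissues (ft/ftMyD88-/-). The labels name no treatment of either group. The 4 WT libraries of the series were not analysed here, so every value is relative to ft/ft and none to filaggrin-sufficient skin.

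The 8 libraries held 15802957 to 29255129 counts, and the totals did not separate the groups (exact permutation test, two-sided, p = 0.457). Sex-linked transcripts did separate them. The labels give all mice as female, but the summed Y-linked transcripts were at 132 to 164 CPM, counts scaled to the library total with edgeR TMM factors, in the ft/ft libraries against 0 to 1.32 CPM in ft/ftMyD88-/-, and *Xist* was at 34.6 to 66.8 CPM in ft/ftMyD88-/- against 1 count in all the ft/ft libraries together. Genotype and sex therefore cannot be told apart in any difference that follows. *Myd88* itself was at 25.4 to 36.5 CPM in ft/ft and 32.2 to 48.8 CPM in ft/ftMyD88-/-, higher by 0.42 on the log2 scale (edgeR adjusted p = 0.0484), with adjusted p of 0.0616 to 0.136 without ft/ft replicate 1, 3 or 4 or ft/ftMyD88-/- replicate 1, 2 or 4. These counts cover the whole gene and show nothing of which part was deleted, so the groups are named by their labels only. Of the marker lists of other tissues, the 8 skeletal muscle genes summed to 9283 to 12415 CPM in ft/ft and 3483 to 6469 CPM in ft/ftMyD88-/-. All 8 fell, against 12.3% of all genes tested. The labelled tissue was checked by *Krt14*, a keratin of basal keratinocytes, at 3958 to 5639 CPM over the 8 libraries. This shows that epidermis was present, not that its content was even between the groups. *Krt14* was not called, but 4 of the 6 basal markers fell. Among these was *Krt5*, at 4334 to 5419 CPM in ft/ft and 2944 to 3370 CPM in ft/ftMyD88-/-.

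Elongases of the ELOVL family catalyse the rate-limiting condensation step by which the endoplasmic reticulum lengthens acyl-CoA, and each accepts its own range of chain lengths and degrees of unsaturation. Stearoyl-CoA desaturases (SCD) place a double bond near the middle of saturated chains and so make monounsaturated fatty acids, while FADS1 and FADS2 add double bonds nearer to the carboxyl end and make long polyunsaturated fatty acids. In skin their products fill the wax esters, triglycerides and cholesterol esters that sebaceous and Meibomian glands secrete, and the very long chain ceramides of the epidermal barrier. Loss of *Scd1* in the asebia mouse leaves the sebaceous glands atrophic. In the present model the paper reported visibly inflamed ft/ftMyD88-/- skin, with sebaceous glands unchanged in number and larger than in ft/ft.

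The members sat on 5 chromosomes of GRCm38.p6. *Elovl6* was on chromosome 3 from 129532386 to 129638495 and *Scd3* on chromosome 19 from 44203288 to 44244016, within a cluster in which *Scd1*, *Scd2*, *Scd3* and *Scd4* spanned 204.4 kb. *Fads1*, *Fads2* and *Fads3* formed another cluster of 156.0 kb on chromosome 19. RefSeq promoter windows of 300 bases, 250 before and 50 after the annotated start on GRCm38.p6, were matched for 6 of the 10 members. Those of *Elovl6* and *Scd3*, the members that fell most, are shown beside those of *Fads2*, the member that rose, and *Elovl5*, which was not called. Both strands were searched for 6 motifs of factors that act on lipid genes, and capitals mark the matches: the sterol regulatory element of SREBP (in 0.0913% of all 32851 windows), the E-box CACGTG (7.15%), the CCAAT box (37.4%), the GC box GGGCGG (35.7%) and the nuclear receptor repeats DR1 (0.0396%) and DR4 (0.0152%), direct repeats of AGGTCA bound by PPAR and LXR.
Elovl6, chr3:129532136-129532435, plus strand: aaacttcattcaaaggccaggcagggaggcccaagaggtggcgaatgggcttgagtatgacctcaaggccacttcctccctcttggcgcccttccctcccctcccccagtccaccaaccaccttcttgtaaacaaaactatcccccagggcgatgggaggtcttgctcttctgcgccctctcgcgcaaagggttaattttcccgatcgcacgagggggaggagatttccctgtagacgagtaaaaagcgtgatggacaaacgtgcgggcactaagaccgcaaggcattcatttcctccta
Scd3, chr19:44203038-44203337, plus strand: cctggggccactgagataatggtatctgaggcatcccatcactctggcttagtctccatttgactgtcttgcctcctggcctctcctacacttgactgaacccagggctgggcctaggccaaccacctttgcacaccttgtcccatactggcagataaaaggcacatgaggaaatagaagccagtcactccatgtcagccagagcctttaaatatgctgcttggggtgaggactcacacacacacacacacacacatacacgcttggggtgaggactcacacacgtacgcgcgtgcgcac
Fads2, chr19:10101454-10101753, minus strand: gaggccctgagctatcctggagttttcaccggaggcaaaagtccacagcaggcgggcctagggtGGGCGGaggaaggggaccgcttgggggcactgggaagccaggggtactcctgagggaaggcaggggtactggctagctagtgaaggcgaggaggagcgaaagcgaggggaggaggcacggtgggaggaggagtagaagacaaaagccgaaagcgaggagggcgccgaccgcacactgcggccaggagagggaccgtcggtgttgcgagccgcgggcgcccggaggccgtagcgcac
Elovl5, chr9:77917115-77917414, plus strand: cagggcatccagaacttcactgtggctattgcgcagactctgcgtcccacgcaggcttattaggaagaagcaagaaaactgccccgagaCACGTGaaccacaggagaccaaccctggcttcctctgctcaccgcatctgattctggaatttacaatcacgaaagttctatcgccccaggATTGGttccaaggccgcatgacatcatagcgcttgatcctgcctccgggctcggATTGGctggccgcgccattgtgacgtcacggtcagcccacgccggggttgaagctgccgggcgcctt
The *Elovl6* and *Scd3* windows held none of the 6 motifs. The *Fads2* window held 1 GC box, 186 bases before the start, and the *Elovl5* window held an E-box 161 bases and CCAAT boxes 71 and 17 bases before it. Other members that fell did hold motifs: the windows of *Elovl1*, which has more than 1 annotated start, held 5 GC boxes with a CCAAT box and 2 GC boxes, and that of *Elovl7* held 3 GC boxes. These are matches of letters only, and nothing about the binding of a factor was measured.

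Across the 10 members, 5 fell in ft/ftMyD88-/- (*Elovl1*, *Elovl6*, *Elovl7*, *Scd1*, *Scd3*), 1 rose (*Fads2*) and 4 did not pass the test (*Elovl3*, *Elovl5*, *Scd2*, *Fads1*). The test was edgeR's quasi-likelihood test over all 20454 genes tested, with a Benjamini-Hochberg adjusted p under 0.05. By the same rule 12.3% of all genes tested fell and 10.9% rose, 23.3% together. The members were chosen with earlier results of these data known, so their counts only describe these 10 genes. The groups did not overlap for 4 of the 10 members (*Elovl1*, *Elovl6*, *Scd1*, *Scd3*), against 26.7% of all genes. The median log2 fold change (ft/ftMyD88-/- minus ft/ft) was -0.32 over the members and 0.01 over all genes tested. With library sizes alone in place of TMM factors, 77.8% of all called genes were higher, against 47.0% here. *Elovl1* and *Elovl7* then were not called (both -0.35), *Elovl3* was called higher, and *Elovl5* and *Scd2* changed sign without a call (0.12 and 0.063). Together the members took 1.60% to 1.90% of all counts in the ft/ft libraries and 0.991% to 1.59% in ft/ftMyD88-/-. Whether fewer cells of a type or less RNA per cell lay behind a lower value cannot be told apart in these bulk samples.

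**Figure D1:**
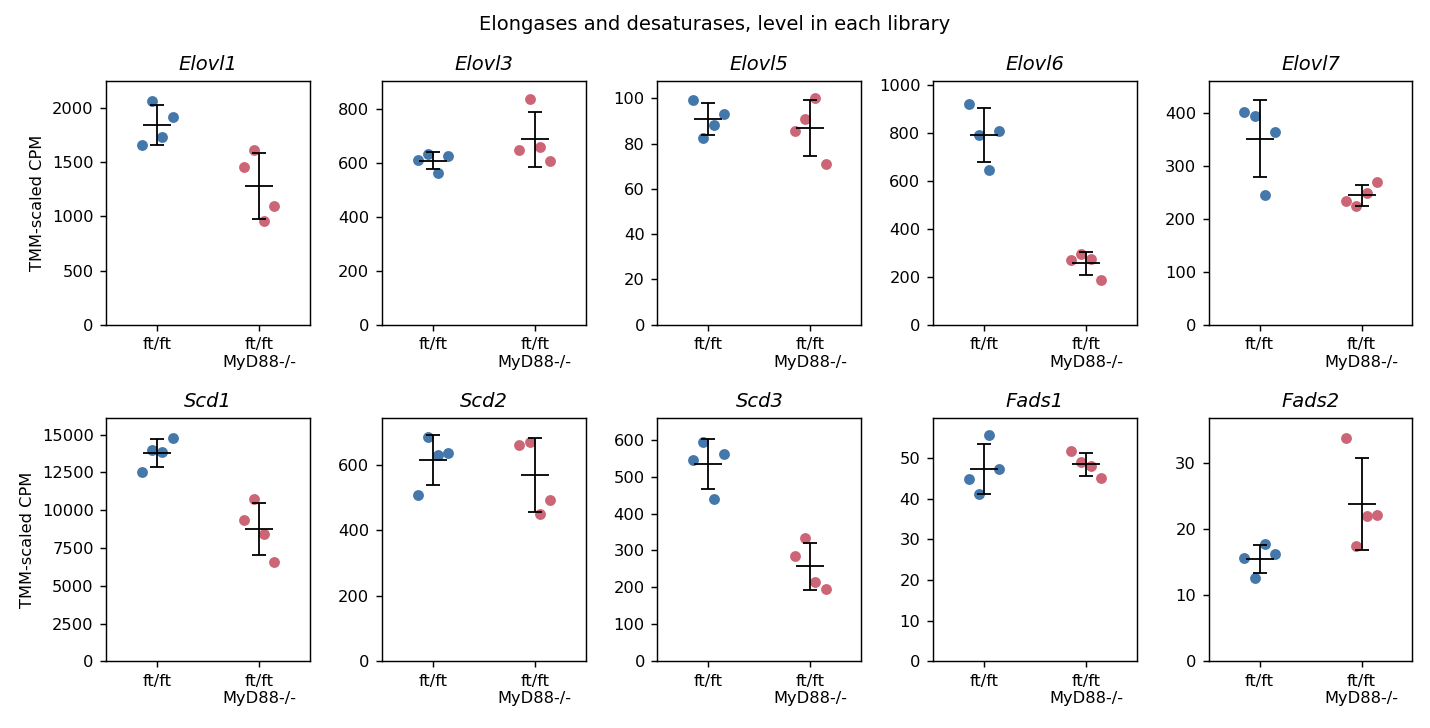
TMM-scaled CPM of each of the 10 members in the 4 ft/ft and 4 ft/ftMyD88-/- libraries, 1 point a library, with the mean and SD in black and each axis starting at 0. *Elovl6* lay between 644.1 and 920.8 CPM in ft/ft and between 184.7 and 293.3 CPM in ft/ftMyD88-/-, while the groups overlapped for *Elovl5* and *Fads1*.

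Levels, in CPM scaled by TMM factors and divided by the kb of annotated exon, spanned a wide range. In ft/ft, *Scd1* was highest at 2855 CPM per kb, followed by *Elovl1* at 950.3 and *Elovl3* at 308, and these ranges did not touch. Next came *Scd3* (123 to 167 CPM per kb), *Elovl6* (105 to 150) and *Scd2* (93.0 to 126), neighbours whose ranges over the 4 libraries overlapped, and then *Elovl7* (60.9 to 100.3), which overlapped *Scd2*. The lowest levels per kb were those of *Elovl5* at 32.7, *Fads1* at 13.7 and *Fads2* at 4.95 CPM per kb. In ft/ftMyD88-/- the top and the bottom of this order stayed as they were, but *Elovl6* moved from rank 5 to rank 7, at 30.1 to 47.8 CPM per kb, below *Elovl7* at 56.1 to 67.1, and *Scd2* (82.5 to 123) moved from rank 6 to rank 4, though its range overlapped that of *Scd3* (54.9 to 93.9). Of enzymes outside the 10, *Elovl4* was at 1040 CPM per kb and *Scd4* at 585 CPM per kb in ft/ft.

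**Figure D2:**
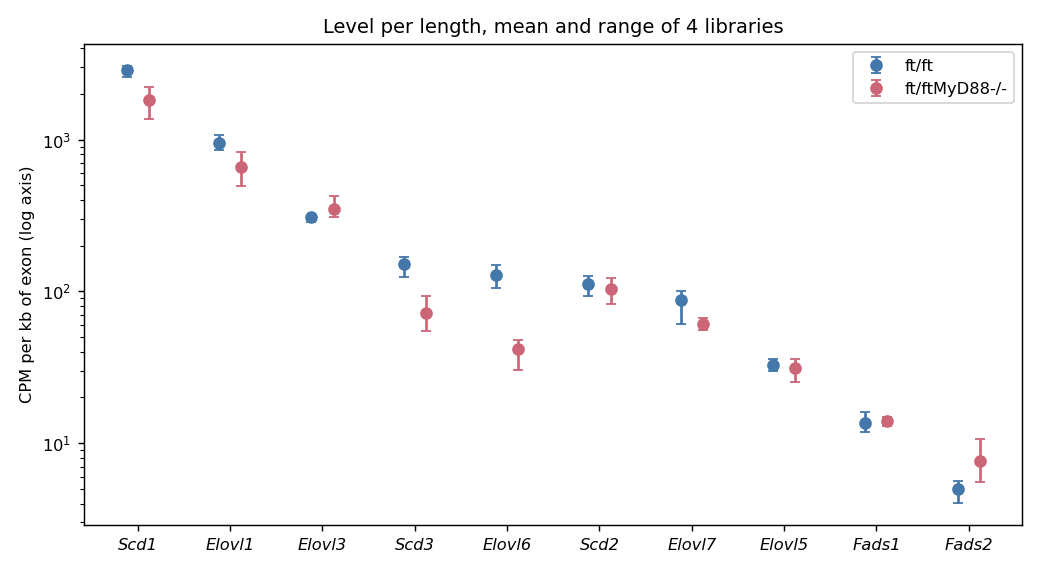
Mean and range over 4 libraries of each member's level in CPM per kb of exon, on a log axis, in the order of the ft/ft means. *Scd1* was highest in both groups and *Fads2* lowest, and *Elovl6* dropped from 129 to 41.6 CPM per kb.

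*Elovl6*, which lengthens palmitate to stearate and so feeds the desaturases with their main substrate, fell further than any other member. It was at 920.8, 790.5, 644.1 and 805.7 CPM in ft/ft replicates 1 to 4 and at 269, 293.3, 274.9 and 184.7 CPM in ft/ftMyD88-/- replicates 1 to 4. The highest ft/ftMyD88-/- library was below the lowest ft/ft library. The means were 790.3 ± 113 CPM (SD, n = 4) and 255.5 ± 48.3 CPM (SD, n = 4), a 3.09-fold lower level (log2 fold change -1.63 with a standard error, SE, of 0.152 and an edgeR adjusted p = 5.25e-05). Leaving out each library in turn gave log2 fold changes of -1.71 to -1.49. Among the counts of the 5 member elongases, *Elovl6* made up 19.7% to 24.9% in ft/ft and 8.28% to 12.3% in ft/ftMyD88-/-. Of the 50-base stretches of its exons, 3.98% also occur elsewhere in the annotated transcripts, 225 of the 259 shared stretches in *Gm11295*, which has no entry in the count table, and fewer in *Trim12c* and *Tanc2*.

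*Elovl1* (chromosome 4, 118426874 to 118432953), which makes the very long saturated and monounsaturated chains of ceramides, fell less. It was at 1661, 2066, 1731 and 1920 CPM in the ft/ft libraries and at 1460, 1610, 958 and 1098 CPM in the ft/ftMyD88-/- libraries. All ft/ft libraries were above all ft/ftMyD88-/- libraries, though ft/ft replicate 1 and ft/ftMyD88-/- replicate 2 lay close together. The log2 fold change was -0.53 ± 0.157 SE (edgeR adjusted p = 0.0299). This call rested on single libraries: edgeR adjusted p was 0.0765 without ft/ft replicate 2, 0.0534 without ft/ft replicate 3, 0.0767 without ft/ft replicate 4, 0.0732 without ft/ftMyD88-/- replicate 3 and 0.099 without ft/ftMyD88-/- replicate 4, at log2 fold changes of -0.55 to -0.39. An exon of *Elovl1* shares 53 bases with the antisense gene *Cdc20*, and the strand setting of the counting is not given in the sources used here.

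*Elovl7* (chromosome 13, 108214326 to 108287109), an elongase of saturated long chains, was at 402.3, 393.8, 244.4 and 364.7 CPM in ft/ft and at 233.6, 225, 249.6 and 269.1 CPM in ft/ftMyD88-/-. Replicate 3 of ft/ft sat among the ft/ftMyD88-/- libraries, and the other ft/ft libraries stood above them. The log2 fold change was -0.52 ± 0.142 SE (edgeR adjusted p = 0.0194). Without ft/ft replicate 3 it was -0.66 (edgeR adjusted p = 0.00185), whereas adjusted p was 0.0541 without ft/ft replicate 1, 0.0517 without replicate 2, 0.0534 without replicate 4 and 0.0508 without ft/ftMyD88-/- replicate 2.

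The remaining elongases did not pass the test. *Elovl3*, which makes very long saturated and monounsaturated chains in sebaceous glands and brown fat, was at 609.4, 633.5, 562.8 and 625.7 CPM in ft/ft and 646, 838.1, 657.5 and 607.2 CPM in ft/ftMyD88-/-. Replicate 2 of ft/ftMyD88-/- was the highest library, and replicate 4 lay within the ft/ft range. The log2 fold change was 0.18 with a 95% interval of -0.06 to 0.42 (edgeR adjusted p = 0.273). With library sizes alone in place of TMM factors it was 0.36 (edgeR adjusted p = 0.0338), a scaling under which the median of 13508 well-counted genes moved by 0.18. *Elovl5*, the elongase of polyunsaturated chains, lay at 82.6 to 99.4 CPM in ft/ft and 70.8 to 100.1 CPM in ft/ftMyD88-/-, with a log2 fold change of -0.06 and a 95% interval of -0.30 to 0.17 (edgeR adjusted p = 0.718). The exons of *Elovl3* share 10 bases with the antisense gene *Pitx3*.

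*Scd1* (chromosome 19, 44394450 to 44407709, minus strand), the main stearoyl-CoA desaturase of the sebaceous gland, supplied most of the members' counts, 72.3% to 75.8% in ft/ft and 68.7% to 73.9% in ft/ftMyD88-/-. It was at 12562, 13966, 13855 and 14796 CPM in ft/ft and at 9339, 10715, 8437 and 6560 CPM in ft/ftMyD88-/-. The groups were well apart, and ft/ftMyD88-/- replicate 4 was the lowest library. The means of 13795 ± 923 and 8763 ± 1742 CPM (SD, n = 4 each) gave a log2 fold change of -0.65 ± 0.15 SE (edgeR adjusted p = 0.00842).

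*Scd3*, a desaturase of skin and the Harderian gland that prefers palmitoyl-CoA, fell further than *Scd1*. It was at 544.3, 594, 438.5 and 560.2 CPM in ft/ft and at 285.7, 333.5, 213.9 and 195.1 CPM in ft/ftMyD88-/-. No ft/ftMyD88-/- library reached the lowest ft/ft library. The level was 2.08-fold lower (log2 fold change -1.06 ± 0.166 SE, edgeR adjusted p = 0.00133). The share of *Scd3* in the counts of *Scd1* to *Scd4* was 3.52%, 3.42%, 2.63% and 3.11% in ft/ft and 2.54%, 2.60%, 2.19% and 2.44% in ft/ftMyD88-/-.

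*Scd2*, best known from brain and early postnatal skin, did not pass the test. It was at 507.5, 685.3, 629 and 635.2 CPM in ft/ft and at 660.9, 669.2, 449.9 and 493.5 CPM in ft/ftMyD88-/-, so the libraries of the groups were interleaved. The log2 fold change was -0.11 with a 95% interval of -0.42 to 0.20 (edgeR adjusted p = 0.618). *Scd4*, the neighbour of these genes and not itself a member, was at 1837, 2111, 1765 and 2025 CPM in ft/ft and at 964, 1114, 682 and 763 CPM in ft/ftMyD88-/-, with no overlap (log2 fold change -1.14 ± 0.148 SE, edgeR adjusted p = 3.77e-04).

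The *Scd* genes are near copies, so reads may be split or dropped between them. The coding sequence of *Scd1* was 89.6% identical to that of *Scd2*, 90.5% to *Scd3* and 84.2% to *Scd4*, and 3.97% to 6.57% of the 50-base stretches in their exons occur in another gene as well. With the 4 genes summed, which does not depend on how reads were shared out among them, the level was 16878 ± 1094 CPM in ft/ft and 10469 ± 2057 CPM in ft/ftMyD88-/- (SD, n = 4 each), without overlap (log2 fold change -0.69 ± 0.149 SE, edgeR adjusted p = 0.00616). The coding sequences of the member elongases were 44.7% to 60.7% identical to each other and those of *Fads1* and *Fads2* 65.9%, and no more than 0.152% of the 50-base stretches of *Elovl1*, *Elovl3*, *Elovl5*, *Elovl7*, *Fads1* and *Fads2* were shared.

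The front-end desaturases were the least abundant members. *Fads2* (chromosome 19, 10062765 to 10101503, minus strand), which carries out the initial desaturation of linoleic and alpha-linolenic acid and makes sapienate from palmitate in human sebaceous glands, was at 15.6, 12.7, 17.7 and 16.3 CPM in ft/ft and at 33.8, 17.5, 22.01 and 22.1 CPM in ft/ftMyD88-/-. Replicate 1 of ft/ftMyD88-/- was the highest library, and replicate 2 lay just below the highest ft/ft library. The log2 fold change was 0.62 ± 0.184 SE (edgeR adjusted p = 0.0324). Without ft/ftMyD88-/- replicate 1 it was 0.40 (edgeR adjusted p = 0.0568), and adjusted p was 0.0721 without ft/ft replicate 1, 0.0806 without ft/ft replicate 2, 0.0657 without ft/ft replicate 4 and 0.0612 without ft/ftMyD88-/- replicate 4. *Fads1*, which acts after FADS2 to make arachidonic and eicosapentaenoic acid, lay at 41.1 to 55.8 CPM in ft/ft and 45.1 to 51.8 CPM in ft/ftMyD88-/- (log2 fold change 0.04, 95% interval -0.18 to 0.26, edgeR adjusted p = 0.816).

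*Fads3*, the third gene of the cluster, which desaturates sphingoid bases and is not a member, was at 19.3, 17.5, 24.3 and 26.5 CPM in ft/ft and at 89.1, 30.9, 38.2 and 55.9 CPM in ft/ftMyD88-/-. Every ft/ftMyD88-/- library was above every ft/ft library, with replicates 1 and 4 highest (log2 fold change 1.29 ± 0.345 SE, edgeR adjusted p = 0.0346). Adjusted p was 0.0901, 0.0871, 0.0712 and 0.0592 without ft/ft replicates 1, 2, 3 and 4 and 0.0819 without ft/ftMyD88-/- replicate 4. The 8 genes of the growing hair follicle summed to 1811 to 2571 CPM in ft/ft and to 15382, 2306, 3488 and 8276 CPM in ft/ftMyD88-/- replicates 1 to 4. Of these 8 genes 2 were called higher, against 10.9% of all genes tested. Their part in the *Fads2* and *Fads3* results was not tested.

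**Figure D3:**
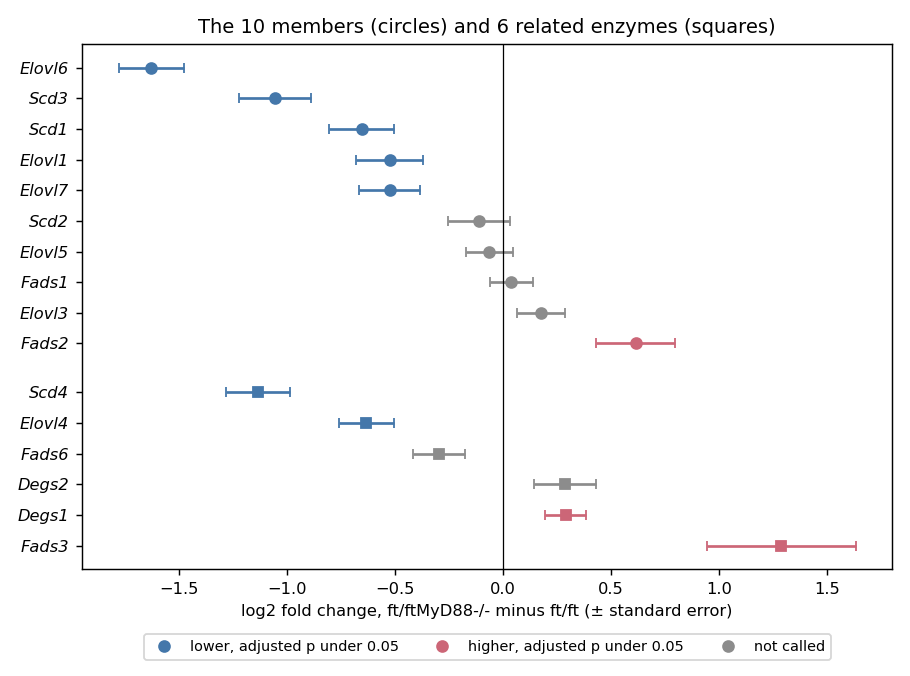
Log2 fold change (ft/ftMyD88-/- minus ft/ft) with its standard error for the 10 members, drawn as circles, and 6 related enzymes, drawn as squares, with colour giving the call. *Elovl6* at -1.63, *Scd4* at -1.14 and *Scd3* at -1.06 lay farthest below 0, and *Fads3* at 1.29 farthest above.

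Ratios between members within a library do not depend on how libraries are scaled, so 7 pairs were compared by an exact permutation test (two-sided, 4 libraries against 4). Each of the 7 gave an exact permutation p = 0.0286 (adjusted p = 0.0286), the smallest p this design allows, and for none did the groups overlap. Every pair but *Fads1* to *Fads2* held *Elovl6*, *Scd1* or *Scd3*, which separated the groups on their own, as did 26.7% of all genes tested. The share of other gene pairs that separate the groups was not computed, so these p-values add little to the calls above. *Elovl3* to *Elovl6* counts stood at 0.662, 0.801, 0.874 and 0.777 in ft/ft and at 2.40, 2.86, 2.39 and 3.29 in ft/ftMyD88-/-, so *Elovl6* outnumbered *Elovl3* in every ft/ft library and *Elovl3* outnumbered *Elovl6* in every ft/ftMyD88-/- library. The log2 ratio differed by 1.81, a 3.50-fold change. The log2 ratio to *Elovl6* also rose by 1.57 for *Elovl5* and by 1.09 for *Elovl1*, so *Elovl6* changed unequally to each of the 3 elongases set against it, of which *Elovl3* and *Elovl5* were not themselves called.

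Among desaturases the log2 ratio of *Scd1* to *Scd3* rose by 0.41 and that of *Scd1* to *Scd2* changed by -0.55, so *Scd3* fell more than *Scd1*, and *Scd1* changed unequally to *Scd2*, which was not itself called. For *Elovl3* against *Scd1*, both abundant in sebaceous glands, the log2 ratio rose by 0.84. *Fads1* to *Fads2* counts were at 2.87, 3.24, 3.14 and 2.90 in ft/ft and at 1.53, 2.80, 2.18 and 2.03 in ft/ftMyD88-/-, a log2 difference of -0.54.

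**Figure D4:**
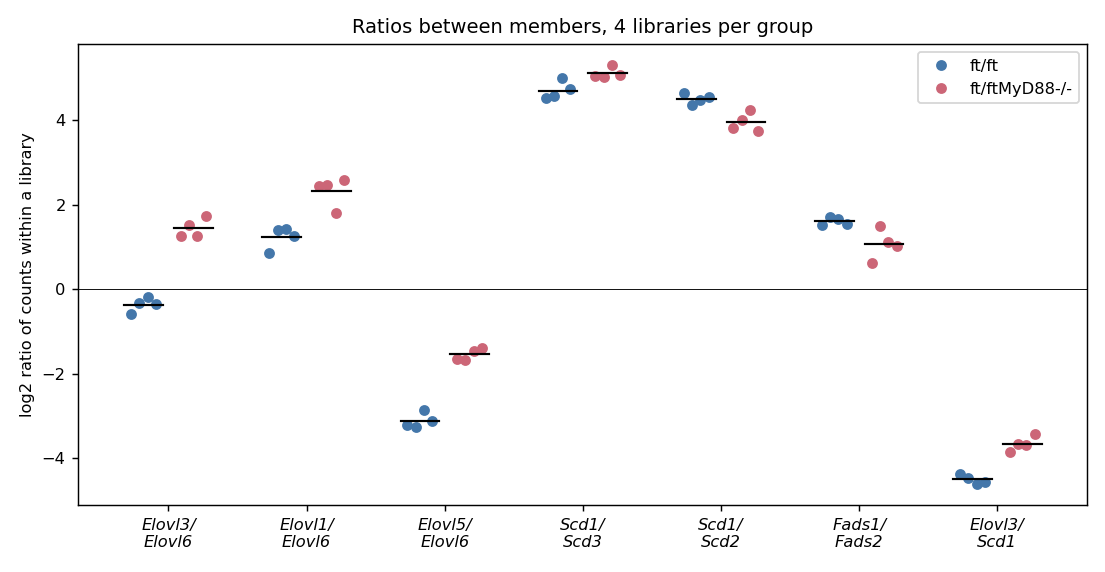
Log2 ratio of the counts of 2 members within each library, 1 point a library, with group means as bars. The groups were apart for all 7 pairs, and *Elovl3* to *Elovl6* crossed 0, from a mean of -0.37 in ft/ft to 1.44 in ft/ftMyD88-/-.

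The enzymes that work with the members were read from 7 lists of 65 genes, of which 62 were tested. Of these, 24 (38.7%) fell, 7 (11.3%) rose and 31 did not pass the test, with a median log2 fold change of -0.29, against 12.3%, 10.9% and 0.01 over all genes tested. The lists were chosen with earlier results of these data known, so these shares only describe the genes listed. Leaving out each library in turn kept the call for 18 of the 24 genes that fell and for 1 of the 7 that rose, *Mlx*. Under all 15 alternatives, 12 of the 24 and 1 of the 7 kept it. The examples that follow are the 19 genes that kept the call whichever library was left out, unless said otherwise. Of these, *Hsd17b12*, *Cyb5r3*, *Me1*, *Slc27a4*, *Insig2* and *Ppara* were not called with library sizes alone.

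In the elongation cycle, 4 of 6 tested partners fell (median -0.42). *Tecr*, the reductase of the last step, was at 584, 570, 584 and 539 CPM in ft/ft and at 368, 399, 358 and 320 CPM in ft/ftMyD88-/-, far apart (log2 fold change -0.66, edgeR adjusted p = 5.72e-04). The dehydratase gene *Hacd2* changed by -0.61 (edgeR adjusted p = 0.00287) and the ketoacyl reductase gene *Hsd17b12* by -0.44 (edgeR adjusted p = 0.00856). Every step of the cycle was thus represented among the genes that fell. With library sizes alone *Hsd17b12* was not called (-0.26, edgeR adjusted p = 0.0681). Of the 6 electron donors of the desaturases 1 fell, *Cyb5r3*, the cytochrome b5 reductase (-0.43, edgeR adjusted p = 0.00642), with a list median of -0.29.

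Of 6 further elongases and desaturases tested, *Scd4* and *Elovl4* fell, and *Fads3* and *Degs1* rose. *Elovl4*, which makes the ultra-long chains of barrier ceramides and Meibomian lipids, was at 3460, 3019, 2695 and 3310 CPM in ft/ft and 1863, 2364, 2089 and 1736 CPM in ft/ftMyD88-/-, without overlap (log2 fold change -0.63, edgeR adjusted p = 0.00404). *Degs1*, which forms the double bond of ceramide, had a log2 fold change of 0.29 (edgeR adjusted p = 0.0430), with adjusted p of 0.0677 to 0.135 without ft/ft replicate 1, 3 or 4 or ft/ftMyD88-/- replicate 2 or 4.

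Of 8 genes that supply the precursor 3 fell (median -0.33). *Fasn*, fatty acid synthase, was at 1041, 1221, 1172 and 1602 CPM in ft/ft and 1063, 945, 1324 and 614 CPM in ft/ftMyD88-/-, overlapping and with no call (log2 fold change -0.35, edgeR adjusted p = 0.268). *Acaca*, the cytosolic acetyl-CoA carboxylase, was not called either (-0.18, edgeR adjusted p = 0.426). *Acacb*, the carboxylase at the mitochondrial outer membrane, fell from 274, 334, 278 and 331 CPM to 130, 159, 151 and 84.2 CPM (log2 fold change -1.22, edgeR adjusted p = 9.76e-04). *Acss2*, which makes acetyl-CoA from acetate (-0.61, edgeR adjusted p = 0.00139), and *Me1*, a source of NADPH (-0.45, edgeR adjusted p = 0.00555), fell as well.

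Among acyl-CoA synthetases, which activate fatty acids for elongation and esterification, 5 of 11 fell and 1 rose (median -0.39). *Acsbg1*, the bubblegum type, fell from 383, 386, 337 and 357 CPM to 183, 198, 193 and 159 CPM (log2 fold change -0.995, edgeR adjusted p = 6.16e-05). *Acsl4*, which prefers arachidonate, *Acsl5* and *Slc27a4*, the fatty acid transporter needed for the skin barrier, changed by -0.57, -0.50 and -0.51. *Slc27a6* rose, at 41.9, 16.9, 21.4 and 31.2 CPM in ft/ftMyD88-/- against 11.6 to 15.7 CPM in ft/ft (log2 fold change 1.04, edgeR adjusted p = 0.0211), with the order of libraries seen for *Fads3*. Its adjusted p was 0.0614 to 0.0646 without ft/ft replicate 1 or 2 or ft/ftMyD88-/- replicate 4.

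Of the 13 transcriptional regulators, 3 fell and 2 rose (median -0.22). With library sizes alone 0 of the 3 that fell were called (edgeR adjusted p = 0.112 for *Insig2*, 0.269 for *Nr1h2* and 0.0592 for *Ppara*). *Srebf1*, whose product drives transcription of *Scd1* and *Elovl6* in liver, was at 171, 206, 203 and 195 CPM in ft/ft and 171, 186, 169 and 141 CPM in ft/ftMyD88-/- and was not called (log2 fold change -0.22, edgeR adjusted p = 0.139). *Pparg*, the receptor of sebocyte and adipocyte differentiation, was not called either (-0.33, edgeR adjusted p = 0.105). *Insig2*, which retains SREBP in the endoplasmic reticulum, fell (-0.41, edgeR adjusted p = 0.0175), as did *Ppara* (-0.54, edgeR adjusted p = 0.00979), and *Mlx*, the partner of the carbohydrate-response factors, rose (0.52, edgeR adjusted p = 0.00357).

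Enzymes that use the products gave 6 of 12 lower and 2 higher (median -0.27). *Awat2*, a wax ester synthase, was at 1752, 1653, 1436 and 1633 CPM in ft/ft and 1032, 1240, 745 and 996 CPM in ft/ftMyD88-/-, without overlap (log2 fold change -0.69, edgeR adjusted p = 0.00470). *Far2*, which makes the fatty alcohols of wax esters, changed by -0.58 (edgeR adjusted p = 0.00566), and *Gnpat*, which starts ether lipid synthesis, by -0.61 (edgeR adjusted p = 5.70e-04).

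**Figure D5:**
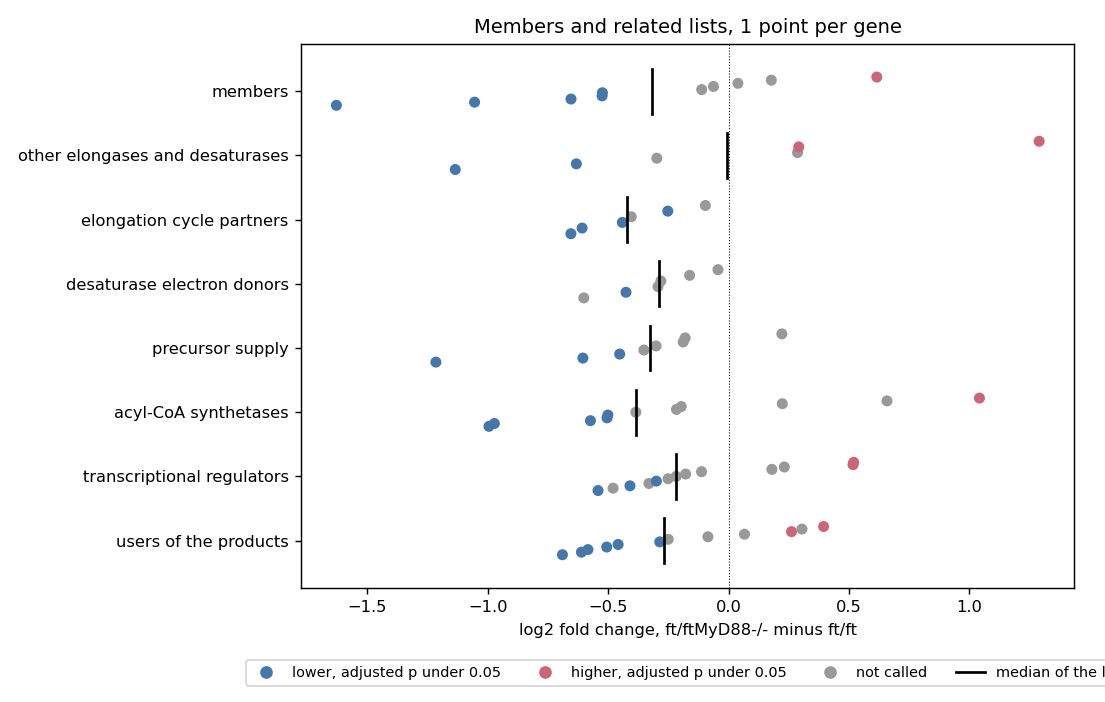
Log2 fold change (ft/ftMyD88-/- minus ft/ft) of each tested gene, 1 point a gene, in the 10 members and the 7 related lists, with colour giving the call and a bar at each list's median. The medians ran from -0.42 in the elongation cycle partners to -0.01 in the other elongases and desaturases, and the members' median was -0.32.

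Markers of several cell types were read beside these results, with 12.3% of all genes tested lower and 10.9% higher. Of 11 sebocyte genes 7 fell, 4 of them whichever library was left out, and the list summed to 9085 to 10346 CPM in ft/ft and 6735 to 8631 CPM in ft/ftMyD88-/-. *Acsbg1*, *Fasn*, *Far2*, *Awat2*, *Pparg* and *Soat1* stand in that list and in the lipid lists above. The lipid droplet gene *Cidea* was among the 4 (log2 fold change -0.46, edgeR adjusted p = 0.0105). The sebocyte genes *Krt79* (log2 fold change -0.01), *Soat1* (-0.09), *Pparg* and *Fasn* were not called. The 8 adipocyte genes had edgeR adjusted p from 0.423 to 0.945 and summed to 825 to 1819 CPM in ft/ft and 801 to 1750 CPM in ft/ftMyD88-/-. Of keratinocyte genes, 4 of 6 basal and 4 of 7 differentiation markers fell. The basal sums overlapped, at 9997 to 12758 CPM in ft/ft and 8235 to 10083 CPM in ft/ftMyD88-/-. The differentiation sums did not, at 16284 to 21293 CPM in ft/ft and 11654 to 14326 CPM in ft/ftMyD88-/-. Of 4 hyperproliferative keratinocyte markers 0 were called, but all had log2 fold changes above 0 (median 0.40). The largest was that of *Krt16* (2.58, edgeR adjusted p = 0.0530). These markers summed to 2784 to 3573 CPM in ft/ft and 3208 to 5403 CPM in ft/ftMyD88-/-. Of 7 leukocyte genes 4 rose and 2 had log2 fold changes below 0. All 7 together summed to 377 to 527 CPM in ft/ft and 714 to 1202 CPM in ft/ftMyD88-/-. These sums include *S100a8*, which was not called (edgeR adjusted p = 0.126), at means of 25.8 and 242 CPM. Of 6 Schwann cell genes 4 fell. All 6 together summed to 417 to 520 CPM in ft/ft and 245 to 387 CPM in ft/ftMyD88-/-. Of 4 lacrimal gland genes found, 1 fell (*Aqp5*) and 3 were not called, among them *Car6* (log2 fold change 1.91, edgeR adjusted p = 0.0561). The lacrimal sums overlapped, at 86.1 to 103 CPM in ft/ft and 68.9 to 117 CPM in ft/ftMyD88-/-. No marker in these lists that the table holds was at 0 in all libraries. The part of any of these cell types, or of muscle, in the elongase and desaturase results was not tested.

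For each called member, the 3 nearest genes were taken by the mean absolute difference of their log2 levels over the 8 libraries, each gene set to its ft/ft mean, among 13507 genes with a mean of at least 50 counts. Nearest to *Elovl6* were *Gprin2* (0.101 log2 units), *Cyp2b10* (0.102) and *Cfap57* (0.119). *Scd3* lay nearest to *Gm10638* (0.101), its neighbour *Scd4* (0.102) and *Acaa1b* (0.119), a peroxisomal thiolase. *Scd1* lay nearest to *Acss2* (0.0705), *Aco1* (0.0716) and *Crat* (0.0755), the carnitine acetyltransferase. *Elovl1* lay near *Agpat1* (0.0628) and *Cyp4f39* (0.0645), which act in glycerolipid and acylceramide synthesis. *Elovl7* had *Plcxd1* (0.0574), *Map2* (0.0604) and *Spag1* (0.0736), and *Fads2* had *Bnc2* (0.0814), *Pgm2l1* (0.0922) and *Them4* (0.102).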

How the data were processed

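Count data of periocular skin came from 4 ft/ft and 4 ft/ftMyD88-/- libraries, grouped by the sample labels. The authors deposited raw counts per gene. Per the paper's methods, polyA-selected TruSeq libraries were read as 50-base single ends, aligned to GRCm38.p6 (HISAT, TopHat2) and counted with HTSeq. The labels of these 8 samples instead give total RNA and fixed tissue, and their processing notes name Cell Ranger, and the strand setting is not given in the sources used here. No sample column was left unused (0), and the WT libraries were not analysed here. Members and lists were chosen with earlier results of these data known.

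Genes reaching a summed count of 10 over all libraries were fitted with edgeR 4.0.16 (TMM, quasi-likelihood, two-sided, Benjamini-Hochberg over all genes tested). The 95% intervals used its total degrees of freedom, residual plus prior. Alternatives were DESeq2 1.42.0, limma 3.58.1 (voom), other scalings and filters, a replicate block and each library left out. Scripts ran in R 4.3.3 and Python 3.11.15 and were tested on simulated data. Ratios added 0.5 to each count. A floor of 3 counts is 0.102 to 0.183 CPM, which covers counting error only. BCV was 0.182. No replicates agreed within sampling noise. Replicate numbers did not pair the samples: deviations of same-numbered libraries correlated at -0.35, 0.03, 0.07 and -0.01.

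Named genes were the members, the genes of the lists and, for each called member, its 3 nearest profiles, of which 1 is not reported here. Some members have no promoter window and are named only. Sequences and exon lengths are from RefSeq and the gene annotation of GRCm38.p6.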

Additional observations from a re-analysis of the deposited data

Results flagged for a closer look

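In each group of 4 libraries, a library was singled out when its gap to the nearest of the others exceeded Dixon's critical value for 4 samples as a share of the group's range. This picked out 5 of 168 groups, and chance alone picks about 1 in 20. *Cyb5r3* was at 281 CPM in ft/ft replicate 3 against 320 to 327 CPM in the others. *Acsl4* was at 219.5 CPM in ft/ft replicate 1 against 211 to 212 CPM. *Mlx* was at 48.05 CPM in ft/ftMyD88-/- replicate 4 against 36.2 to 38.2 CPM. *Bnc2* was at 6.26 CPM in ft/ft replicate 2 against 7.46 to 7.70 CPM. The summed adipocyte genes were at 1750 CPM in ft/ftMyD88-/- replicate 3 against 801 to 915 CPM in the others. No member was among them.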

How the results depend on the processing

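*Elovl6*, *Scd1*, *Scd3* and the summed *Scd* genes kept their direction and call under all 15 alternatives. The same 6 members were called by DESeq2, limma voom, RLE factors, both filters and the replicate block. With library sizes alone, members called higher numbered 2 and lower 3, all genes 4638 higher (77.8% of calls, against 47.0%) and 1326 lower, and related list genes 12 higher and 13 lower. *Elovl1* and *Elovl7* were then not called (both -0.35), and *Elovl5* (0.12), *Scd2* (0.063) and *Srebf2* (0.063) changed sign without a call. Leaving out each library gave 0 to 1 members higher and 3 to 5 lower, 1462 to 2260 genes higher (lowest without ft/ft replicate 4) and 2 to 7 list genes higher (2 without ft/ft replicate 1 or 3, 3 without ft/ft replicate 4 or ft/ftMyD88-/- replicate 4, and 4 without ft/ftMyD88-/- replicate 2). Members lower were 3 without ft/ft replicate 2 or 4. *Elovl5* then ran from -0.12 to 0.031 and *Fads1* from -0.023 to 0.13. The replicate block called 1895 genes higher and 2144 lower. The numbers did not pair the samples, and 1 of 4 correlated best with its own number. Under the block the differences of the ratios were 1.81, 1.09, 1.57, 0.41, -0.55, -0.54 and 0.84, the same as without it. Pairing the libraries cannot change a difference of group means here, so these equal values do not test the ratios. The 4 pairs also cannot give an exact p under the threshold. Why calls changed between settings was not tested, and only the fits that left out a library had fewer samples. The least abundant member, *Fads2*, was at 12.7 CPM or more, and the part of depth in these changes was not tested.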
